A study of Mus musculus with 4 samples.

Results

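A group of 15 long non-coding RNA (lncRNA) features stood much higher in mouse ovaries cultured for 8 days than in ovaries of 3-day-old mice. They are the NONMMUG features, of 47459 listed, that combined a sizeable level after culture with a low but counted level at day 3. NONMMUG is the prefix of mouse genes in the NONCODE database. Membership needed fewer than 10 listed transcripts and an FPKM of at least 3 in both cultured libraries. FPKM counts the fragments of a feature relative to its length in kilobases and to the size of the library. Membership also needed both day 3 FPKM values to be at most 25% of the lower cultured FPKM, and a count above 0 in at least 1 day 3 library. The series as a whole lists 50821 features. The members were thus chosen by the very values described here, so their higher level after culture is a description and not a finding.

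The day 3 group (2 libraries) is total RNA of ovaries isolated at 3 days of age, which the labels place before follicle initiation. The cultured group (2 libraries) is total RNA of ovaries isolated at the same age and then kept in vitro for 8 days, placed after initiation. Follicle initiation was assessed by histology, per the labels. The strain, the culture medium and whether a library holds 1 animal or several are not given in the sources used here, so the spread between libraries of a group may be technical. Age and culture changed together between the groups, so their parts cannot be told apart. The estimated counts of listed features summed to 18215834 to 26566784 per library. Cultured library 1 stood apart, with 11211 features at FPKM 0.5 or above against 6991 to 7334 in the other libraries.

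In the newborn mouse ovary, primordial follicles consist of a small arrested oocyte inside a flat layer of somatic cells. At initiation the somatic cells become cuboidal granulosa cells that divide, and the oocyte enlarges. LncRNAs are transcripts that are not known to be translated. They can act in the nucleus on the transcription of other genes or in the cytoplasm on other RNAs, and for most NONCODE entries no role is established. The tables pair the identifiers with no gene symbol, so no role is given for any member, and the tissue was not checked against markers of oocytes, granulosa cells or other cells. In bulk ovary RNA, fewer cells of a type and less RNA per cell cannot be told apart.

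The 15 features had FPKM values from 3.56 to 20.8 in cultured library 1, with a median of 5.84, and from 3.24 to 26.5 in cultured library 2, with a median of 5.68. In day 3 library 1 they ran from unlisted to 2.04, with a median of 0.44, and in day 3 library 2 from unlisted to 2.35, with a median of 1.07. Added over all 15, FPKM came to 9.55 and 15.2 at day 3 against 104 and 107 after culture. In rank by FPKM among all NONMMUG features, the members moved from a median of 6357 and 2634 at day 3 to 738 and 565 after culture. After culture their ranks ran from 227 to 1220 in library 1 and from 156 to 923 in library 2, among 47459 features. The FPKM minimum of 3 confines members to such high ranks, so nothing is read from them.

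**Figure D1:**
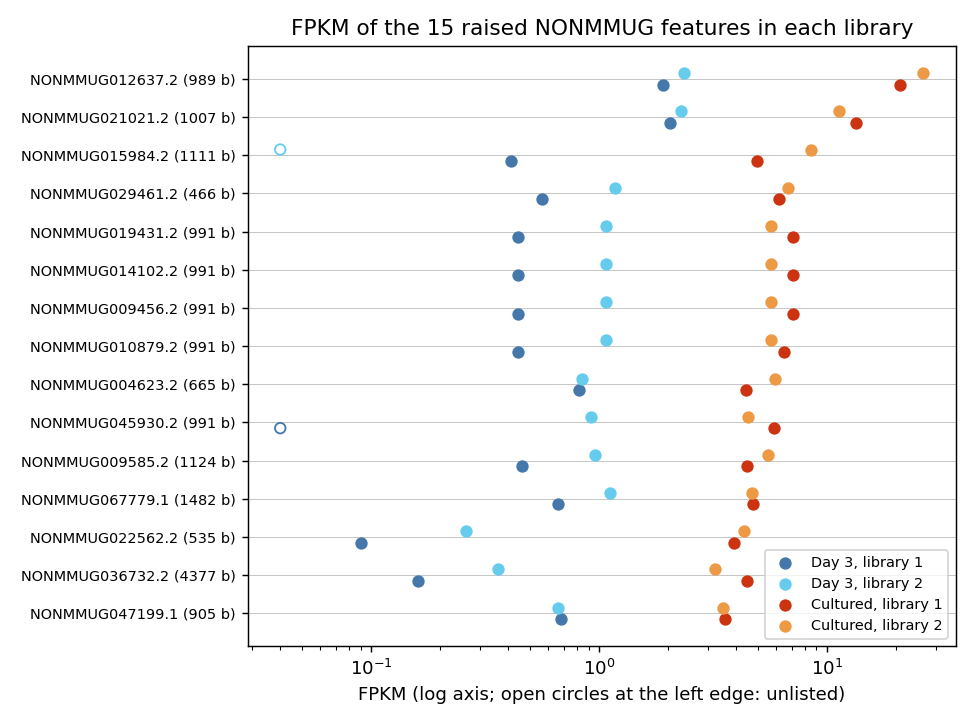
FPKM (log axis) of the 15 raised NONMMUG features in the 4 libraries, each point 1 library, ordered by mean cultured FPKM, with feature length in bases. Open circles mark the day 3 libraries in which NONMMUG015984.2 and NONMMUG045930.2 were unlisted, and every cultured point lies above every day 3 point of its feature.

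All 15 were called higher after culture by edgeR's quasi-likelihood test (adjusted p below 0.05 over 8557 features tested), against 5.87% of all tested features. DESeq2 called 13 of them (4.96% of all features) and edgeR scaled by the totals behind FPKM 14 (also 4.96% of all features). The rule used the same contrast, so nothing is read from that count. The members' log2 fold changes ran from 2.10 to 4.78 with a median of 2.76, beside a median of 0.08 over all tested features. Their standard errors ran from 0.380 to 0.825. These fold changes use TMM scaling (trimmed mean of M-values), which sets cultured library 1 lower than the FPKM scale does. With the totals behind FPKM the members' log2 fold changes ran from 2.41 to 5.03, with a median of 3.08. On FPKM values divided by TMM factors, 8 of the 15 would still meet the rule. Those 8 were the 5 members of 991 bases with NONMMUG012637.2, NONMMUG015984.2 and NONMMUG036732.2.

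The most abundant member was NONMMUG012637.2, a single transcript of 989 bases. Its day 3 FPKM was 1.91 and 2.35 and its cultured FPKM 20.8 and 26.5, from 87.4 and 107 counts at day 3 and 861 and 1020 after culture. Both cultured libraries lay far above both day 3 libraries, and on the FPKM scale the libraries of a group were close to each other. The mean FPKM was 11.1 times higher after culture (95% exact binomial interval of the ratio of summed counts per library total 9.62 to 13.0, counting error only), and the log2 fold change was 3.21 (SE 0.434). On the TMM scale the log2 fold change was 3.60 without cultured library 1 and 2.60 without cultured library 2. The rank of NONMMUG012637.2 among NONMMUG features was 1404 and 1177 at day 3 and 227 and 156 after culture.

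NONMMUG021021.2, a single transcript of 1007 bases, came next. FPKM rose from 2.04 and 2.29 at day 3 to 13.4 and 11.3 after culture. At day 3 it was about level with NONMMUG012637.2 and above the other members, and its change was among the smaller ones, with a mean FPKM 5.69 times higher (interval 4.94 to 6.73) and a log2 fold change of 2.19 (SE 0.380). Its estimated counts were whole numbers in all 4 libraries (95 and 106, then 563 and 442), as they were for only 1 other member. A fractional estimate can arise where reads are divided among features. Of the 879 NONMMUG features with fewer than 10 transcripts and FPKM of at least 3 in both cultured libraries, 20.7% had whole counts in every library.

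The other member with whole counts was NONMMUG022562.2, of 535 bases. It measured FPKM 0.09 and 0.26 before and 3.92 and 4.31 after culture. The day 3 values rested on 2 and 6 counts, the cultured values on 83 and 85. The cultured libraries nearly coincided in FPKM, while the size of the change depended on very few day 3 reads. Mean FPKM was 23.5 times higher after culture (interval 11.98 to 56.9, counting error only), and 15.8 times that of day 3 library 2 alone. The 2 counts of day 3 library 1 lie under the floor of 3 counts, so no fold is given against it alone. The log2 fold change was 4.26 (SE 0.608).

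NONMMUG015984.2, of 1111 bases, had a log2 fold change of 4.78 (SE 0.825), the largest of the members with all 4 libraries. Without day 3 library 2, where it was unlisted, the log2 fold change was 3.77, below the 5.18 of NONMMUG022562.2 and the 4.25 of NONMMUG036732.2 in the same fit. The largest value in that fit was the 10.65 of NONMMUG045930.2, which was unlisted in the remaining day 3 library. The FPKM of NONMMUG015984.2 was 0.41 in day 3 library 1, from 21.3 counts, and it was unlisted in day 3 library 2. After culture the FPKM was 4.92 and 8.50, from 230 and 370 counts. The cultured libraries differed more for this feature than for any other member, with library 1 at 0.579 times library 2. Mean cultured FPKM was 16.4 times that of day 3 library 1 and 115 times that of day 3 library 2 when put at a floor of 3 counts. Its counts are fractional estimates and the floor covers counting error only, so this is no firm lower bound. DESeq2 did not call it.

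NONMMUG036732.2 was the longest member, a single transcript of 4377 bases. FPKM stood at 0.16 and 0.36 before and 4.47 and 3.24 after culture. Its length gave it many counts for a low FPKM, with 33.3 and 75.8 counts before and 856 and 579 after culture. Mean FPKM was 14.8 times higher after culture (interval 12.5 to 18.6), 24.1 times that of day 3 library 1 alone and 10.7 times that of library 2 alone. The log2 fold change was 3.57 (SE 0.452). This feature rose from ranks 13609 and 7913 among NONMMUG features to ranks 948 and 923.

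Length 991 bases recurred among the members and accounts for 5 of the 15. It was the length of 8 of those 879 NONMMUG features that reached FPKM 3 in both cultured libraries (0.91%). NONMMUG009456.2, NONMMUG014102.2 and NONMMUG019431.2 had identical values throughout, with day 3 FPKM of 0.44 and 1.07 and cultured FPKM of 7.09 and 5.68, from 20.3 and 48.9 counts and then 293 and 219. NONMMUG010879.2 shared these values except in cultured library 1, where its FPKM was 6.47 from 268 counts. The 4 features matched in length and, within 10%, in counts in every library, so reads may be shared between them and they are uncertain as 4 separate genes. Counted as 1 feature, they leave 12 members.

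The identical trio had a mean FPKM 8.46 times higher after culture, or 14.5 times that of day 3 library 1 alone and 5.97 times that of library 2 alone. The log2 fold change was 2.76 (SE 0.461) for each of the trio and 2.70 (SE 0.466) for NONMMUG010879.2. The fifth member of 991 bases, NONMMUG045930.2, was unlisted in day 3 library 1 and had FPKM 0.92 in day 3 library 2, then 5.84 and 4.49 after culture. Its counts were 42.0 in day 3 library 2 and 242 and 173 after culture, lower than those of the other members of this length in each library. Mean cultured FPKM was 5.61 times that of day 3 library 2 and 78.6 times that of day 3 library 1 when put at a floor of 3 counts. Its counts are fractional estimates and the floor covers counting error only, so this is no firm lower bound. Its log2 fold change was 3.17 (SE 0.825), with the largest standard error of the members. The call was lost with the library totals behind FPKM, in DESeq2, and in edgeR without cultured library 1 or without cultured library 2.

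The tables list 34 single-transcript NONMMUG features of exactly 991 bases, against a median of 18 (11 to 30) at each of the 40 lengths within 20 bases. Of the 34, 18 had a mean of at least 10 counts, and in 14 of these 18 both cultured FPKM values lay above both day 3 values, as in 37.9% of all tested features. Nothing is read from that count, since 5 of the 14 are members and another 5 reached the mean only through the cultured libraries. This length was singled out after the values were seen, so no test is given. Apart from the 5 members, the 14 include NONMMUG001536.2, at FPKM 3.75 and 11.0 before and 38.3 and 37.7 after culture. NONMMUG004513.2 went from 1 and 5.34 to 18.8 and 15.3, and NONMMUG019298.2 from 0.62 and 1.44 to 4.49 and 7.19. In these 3 features a day 3 FPKM above 25% of the lower cultured value kept them outside the rule.

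A further 5 of the 14 (NONMMUG009088.2, NONMMUG019644.2, NONMMUG022667.2, NONMMUG036487.2 and NONMMUG027534.2) had no entry at day 3 in either library and reached FPKM 3.33 to 3.63 and 2.02 to 2.05 after culture, below the FPKM minimum in cultured library 2. The last of the 14 was NONMMUG015725.2, at FPKM 0.46 and 0.66 before and 0.89 and 1.11 after culture. The features with a mean of at least 10 counts outside the 14 were NONMMUG030338.2, NONMMUG080144.1, NONMMUG068025.1 and NONMMUG059717.1. NONMMUG030338.2 stood at FPKM 1.85 and 2.04 before and 1.88 and 1.53 after culture, with a log2 fold change of -0.52. NONMMUG080144.1 had 1.6 and 1.35 before and 2.47 and 1.48 after culture. Over all 34 features the estimated counts summed to 557 and 1294 at day 3 and to 5030 and 3986 after culture. A sum is not altered by how reads are divided among the 34. The 5 members were selected for being higher and contribute to this sum. The 13 counted features of this length that are not members had a summed FPKM of 10.0 and 22.6 before and 86.2 and 75.3 after culture. They include the 5 with no entry at day 3, which reached the mean of 10 counts only through the cultured libraries. NONMMUG001536.2 and NONMMUG004513.2 had the highest FPKM of the 13 after culture. Nothing is therefore read from this sum. Whether the 34 share sequence was not analysed here.

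**Figure D2:**
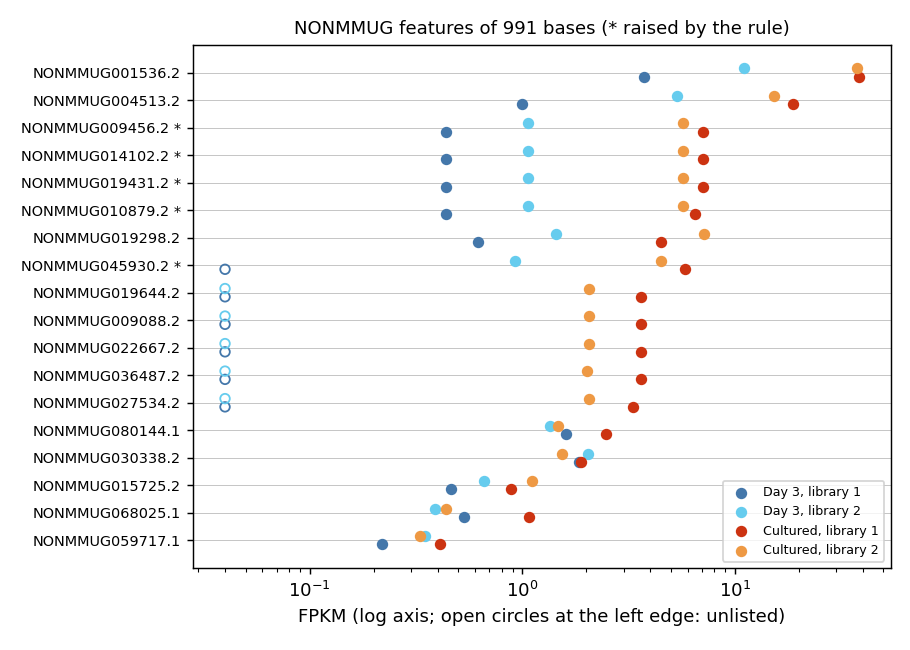
FPKM (log axis) in the 4 libraries of the 18 NONMMUG features of 991 bases with a mean of at least 10 counts, each point 1 library, asterisks marking the 5 that meet the rule. Open circles stand for unlisted. The upper 13 features and NONMMUG015725.2 have both cultured points to the right of both day 3 points.

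The remaining 5 members lay between FPKM 3.49 and 6.72 after culture. NONMMUG029461.2, the shortest member at 466 bases, measured FPKM 0.56 and 1.18 before and 6.17 and 6.72 after culture. Its mean was 7.41 times higher, 11.5 times that of day 3 library 1 alone and 5.46 times that of library 2 alone. NONMMUG009585.2, of 1124 bases, had 0.46 and 0.96 at day 3 and 4.46 and 5.50 after culture. The mean was 7.01 times higher, 10.8 times day 3 library 1 alone and 5.19 times library 2 alone. Day 3 library 2 was 2.11 times library 1 in the former and 2.09 times in the latter, beside 2.43 times in the set of 4.

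NONMMUG004623.2 is the only member with several transcripts, 4 in all. Its day 3 FPKM was 0.82 and 0.84 and its cultured FPKM 4.40 and 5.93, 6.22 times higher in the mean. The deposited length of this feature is a mean over its transcripts and differed between libraries (from 481 to 766 bases), so its counts (17.0 and 29.0, then 129 and 156) do not follow its FPKM. The transcripts' own values were not analysed here.

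NONMMUG047199.1, of 905 bases, stood at FPKM 0.68 and 0.66 before and 3.56 and 3.49 after culture, and within each group its libraries nearly coincided. It also had the smallest change, a mean 5.26 times higher and a log2 fold change of 2.10 (SE 0.447). NONMMUG067779.1, of 1482 bases, had 0.66 and 1.12 at day 3 and 4.74 and 4.70 after culture. It was 5.30 times higher in the mean and 4.21 times day 3 library 2 alone. Its log2 fold change was 2.11 (SE 0.416), and edgeR's call was lost without day 3 library 1.

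The rule's limits cut through a continuous range. NONMMUG067779.1, with its higher day 3 FPKM at 23.8% of the lower cultured one, NONMMUG009585.2 at 21.5% and NONMMUG045930.2 at 20.5% lay nearest inside the 25% limit. NONMMUG020309.2 at 25.8%, NONMMUG045602.2 at 25.8% and NONMMUG034156.2 at 25.9% lay nearest outside it. The last of these was far more abundant than any member, at FPKM 22.3 and 43.1 before and 186 and 167 after culture. NONMMUG036732.2, NONMMUG047199.1 and NONMMUG022562.2 lay nearest above the FPKM minimum, with a lower cultured FPKM of 3.24, 3.49 and 3.92. NONMMUG012048.2 (2.69), NONMMUG046370.2 (2.62) and NONMMUG007125.2 (2.48) lay nearest below it. Of the 879 NONMMUG features that met the conditions on transcripts and cultured FPKM, 117 had both day 3 values at no more than 50% of the lower cultured one, and 15, or 1.71%, at no more than 25%. Among LXLOC features, the other identifier class of the tables, 9 of 150 (6%) met the same conditions, a difference that was not tested.

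**Figure D3:**
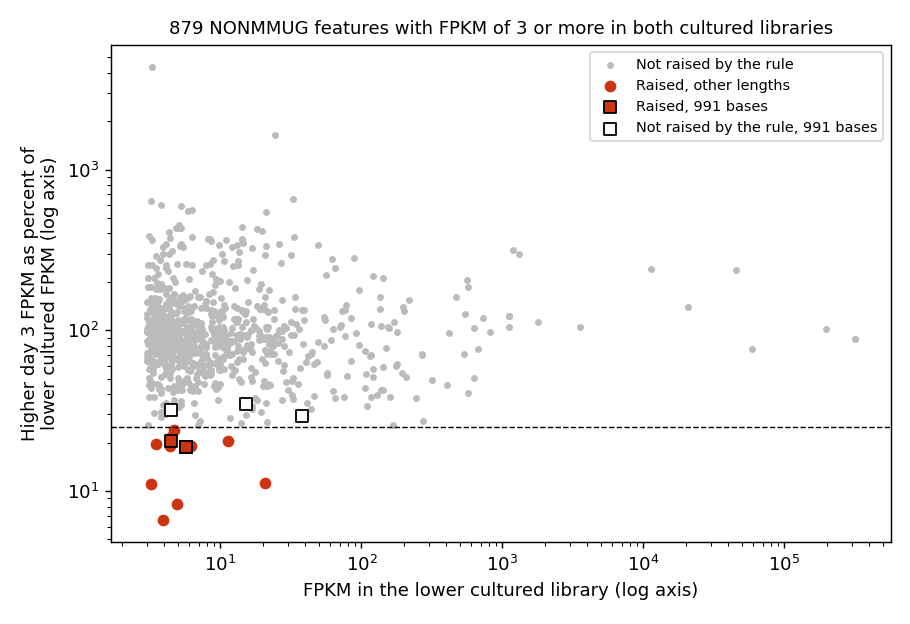
The higher day 3 FPKM as a percent of the lower cultured FPKM (log axis) against the lower cultured FPKM (log axis) for 879 NONMMUG features, each point 1 feature. The dashed line is the 25% limit, with the 15 members (red) below it and squares marking features of 991 bases, 5 below and 3 just above the line; 4 of the 5 squares below coincide.

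Within the groups and on the FPKM scale, the members showed little of the general offset of cultured library 1. Over the 7267 NONMMUG features tested, the median difference of cultured library 1 minus library 2 was 0.42 in log2(FPKM + 0.5), and 79.6% were higher in library 1. Over the 15 members the median was 0.03, and 9 were higher in library 1. Over the 879 features that reached FPKM 3 in both cultured libraries the median was 0.14, and 62.8% were higher in library 1. The cultured libraries lay within 1.5 times of each other in 14 of the 15 members and in 70.5% of the 879 features. All these values hold on the FPKM scale only. The relative TMM factors were 1.37 for cultured library 1 and 0.919 for library 2. The highest FPKM ratio of library 1 to library 2 among the members was 1.38. Division by those factors thus puts library 1 below library 2 in every member. The members and the 879 features all meet the FPKM minimum in both cultured libraries, which the 7267 need not. Among the members, 4 are the set that may share reads. These differences were not tested.

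At day 3 the members leaned towards library 2, which was the higher in 13 of 15, with a median difference of 0.48 in log2(FPKM + 0.5). The same median was 0.05 over the tested NONMMUG features, of which 54.7% were higher in library 2, and 0.08 over the 879 features. Over the 9 LXLOC features that met the same conditions it was 0.24, and 6 of them were higher in library 2. These differences between sets were not tested. Among the members, the exceptions were NONMMUG015984.2, unlisted in library 2, and NONMMUG047199.1, at nearly equal levels. Since 4 of the 13 have equal day 3 values and may share reads, the 13 are not independent. The library difference was smaller than the difference between groups in every member, as the rule requires.

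**Figure D4:**
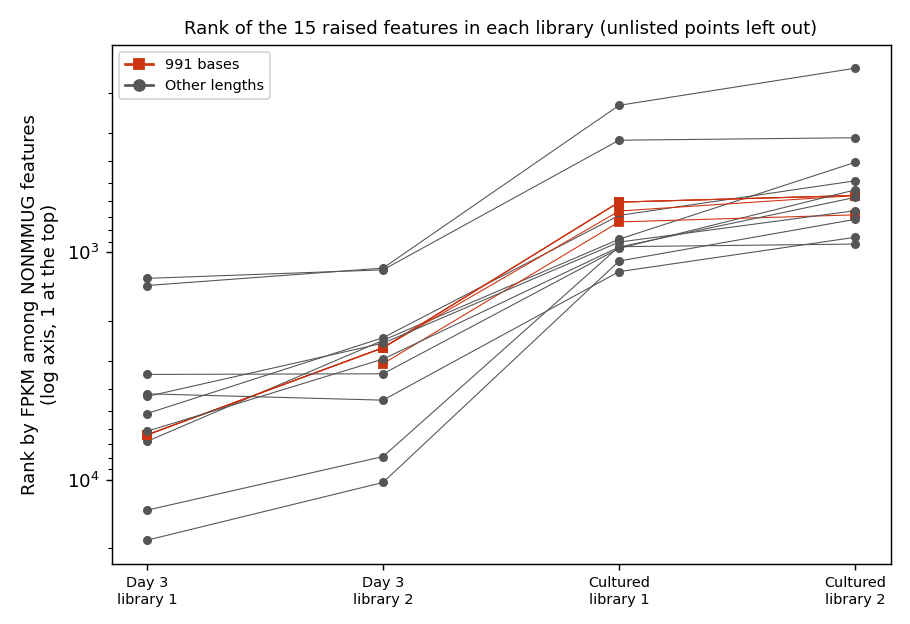
Rank by FPKM among NONMMUG features (log axis, 1 at the top) of each member in the 4 libraries, with the 991-base members in red and unlisted points left out. Lines join the points of a feature and carry no order among libraries of a group. Ranks lie between 1177 and 18434 at day 3 and between 156 and 1220 after culture.

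The members were of middling length and mostly had a single transcript. Their median length was 991 bases (466 to 4377), against 1143 bases for the 879 features. The middle range from the lower to the upper quartile was 947 to 1059 bases for the members and 682 to 2021 bases for the 879. A single transcript was listed for 14 of the 15 (93.3%) and for 71.6% of the 879, and 4 of the 14 are the set that may share reads. It was also listed for all 9 of the LXLOC features that met the same conditions. The 5 members of 991 bases lie inside that middle range.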

How the data were processed

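Stranded libraries of ovary total RNA (2 at day 3, 2 cultured) were sequenced as paired reads, per the labels' protocols. HISAT and Cufflinks are named with build mm9 in the submitters' processing notes, and no source used here gives the tool behind the counts. Per the file headers, the authors deposited FPKM, expected count and length per feature. Features absent from a table are called unlisted and stand at 0. Expected counts were rounded and tested with edgeR 4.0.16 (R 4.3.3, TMM, quasi-likelihood F test, two-sided, Benjamini-Hochberg) over features reaching FPKM 0.5 in at least 2 libraries. All 15 members pass this filter by their rule. The standard error is the log2 fold change divided by the square root of F. Library totals behind FPKM (41410677 to 49357745) came from a line of count over FPKM on length. Exact binomial intervals (scipy 1.17.1) and floors of 3 counts cover counting error only, since the reads carry no molecular identifiers and need not be independent molecules. In simulated counts for this comparison (8557 features), edgeR recovered 6 of 68 simulated 2-fold changes, 50 of 72 at 4-fold and 59 of 60 at 8-fold. It called 6 of 8357 unchanged features. The simulation gave every feature the same dispersion and changed only features with a mean of at least 10 counts. It gave cultured library 1 no offset beyond its library size, so these rates need not hold in the real libraries. Named features were the members, by abundance, size of change, spread, length and shared reads, and the 3 nearest features outside each limit. Features of 991 bases and those adjacent in identifier number were named after their values were seen. The members and lists were chosen with earlier results of these data known. Alternatives used DESeq2 1.42.0, limma 3.58.1, other scalings, filters and limits, a replicate block, and each library left out. No identifier occurs in the gene tables at hand, which are of another build, so positions, sequences and annotation were not used here.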

Additional observations from a re-analysis of the deposited data

How the results depend on the processing

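Of 180 log2 fold changes of single members under 12 alternatives, none changed sign and 6 lost their call, namely those of NONMMUG045930.2 (4 of the 6) and NONMMUG067779.1 given above and that of NONMMUG015984.2 in DESeq2. The members were chosen for a large difference in these libraries, so this is no sign of stability. DESeq2 called 13 of the 15, and leaving out each library in turn, with a lone library assumed to vary like the others, gave 14 to 15. The number of features meeting the rule followed its limits. It was 29 with an FPKM minimum of 2 and 7 with 5, 117 with day 3 at no more than 50% and 4 at no more than 12.5%, and 8 on FPKM divided by TMM factors. Applied without 1 library the rule gave 22 to 90 features, with 51 without day 3 library 2, 27 without cultured library 1 and 90 without cultured library 2. Fewer libraries have to meet the limits there. Over all tested features, 502 were higher and 727 lower. Without a filter these numbers were 1133 and 1407 (50821 features tested), and at FPKM 1 they were 309 and 435 (4166 tested). Lower features numbered 276 with the library totals behind FPKM, 380 with limma on log2(FPKM + 0.5) and 356 with limma on log2(FPKM + 1), and the cause was not tested. Leaving out each library gave 232 to 412 higher and 354 to 848 lower features, with 232 and 354 without day 3 library 1 and 388 lower without cultured library 1. Nothing in the labels says that a replicate number pairs libraries, and the deviations of same-numbered libraries had r = -0.12 across features. A replicate block gave 497 higher and 707 lower features and called all 15 members.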

Other observations

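The features next to the members in identifier number were read off as values. Whether consecutive NONMMUG numbers stand for neighbouring places in the genome is stated in no source used here. Within 2 numbers of a member the tables list 40 NONMMUG features, of which 8 were abundant enough to be tested. Of those 8, 2 were called higher after culture and none lower (edgeR, adjusted p below 0.05). Over all 8557 features tested, 5.87% were called higher and 8.5% lower. The first of the 2 passed the filter on low values only through the cultured libraries, so nothing is read from the count. The first was NONMMUG036734.2, of 2271 bases, 2 numbers after NONMMUG036732.2. It measured FPKM 0.03 and 0.20 before and 3.70 and 2.41 after culture, from 3 and 22 counts and then 363 and 221, and its log2 fold change was 4.37 (edgeR, adjusted p = 0.000361). It missed the rule by the FPKM minimum in cultured library 2. The other was NONMMUG067780.1, of 1235 bases, the number after NONMMUG067779.1. It measured FPKM 1.84 and 4.02 before and 9.28 and 10.9 after culture, with a log2 fold change of 1.52 (edgeR, adjusted p = 0.0317). In both, day 3 library 2 was higher than day 3 library 1, as in the member named beside it. In each of the other tested features of the 8, day 3 library 1 was the higher, as in NONMMUG021020.2 at FPKM 0.37 and 0.24.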
